A study of Mus musculus with 6 samples.

Results

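The genes described here build the extracellular matrix of the colon wall: collagens, the proteoglycans and glycoproteins that decorate them, elastic fibre proteins, basement membrane proteins and a few markers of the stromal cells that make them. They were chosen by gene name, from a list of 41 names. Of these, 40 matched 1 row each of the count table, which holds 55849 rows, and the name Thy1-dummy matched none. All 40 genes had enough counts to be tested. They were divided by role into 27 interstitial genes, 10 basement membrane genes and 3 stromal cell genes that encode no matrix protein.

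Interstitial matrix is the fibrous scaffold between cells. Its fibrils are built from collagens I, III and V, and small leucine-rich proteoglycans and fibril-associated collagens bind to their surface, while elastic fibres of elastin and fibrillin give recoil. The basement membrane is a thin sheet beneath epithelium and around smooth muscle cells and vessels, made of collagen IV and laminin networks joined by nidogen. In the colon, interstitial matrix comes mainly from fibroblasts of the mucosa, submucosa and muscle coat, and collagen IV from fibroblasts, muscle and vessel cells. Chronic inflammation of the gut is known for altering both kinds of matrix.

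RNA was taken from the descending colon of untreated mice aged 12 weeks. There were 3 wild-type libraries (strain C57BL/6) and 3 Muc2-/- libraries. Muc2 is the mucin that forms the mucus gel over the colon, and its loss is known to cause colitis. The labels do not describe the mutated allele or the strain background of the mutants, and do not say whether a library holds 1 animal or several, so the p-values reflect variation among libraries, which may be technical. Sample titles name crypts, whereas the described dissection was of whole colon segments. Smooth muscle genes, absent from crypt epithelium, were abundant in the wild-type libraries (Myh11 had 4463, 2719 and 1253 CPM) and lower but present in the mutants (794, 231 and 448 CPM). The libraries were therefore not of crypt epithelium alone.

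Library totals ran from 16395432 to 20336459 counts. The targeted gene, Muc2, ranged from 2474 to 6966 CPM (library-scaled counts, with TMM factors) among the wild-type libraries and from 756 to 1019.9 CPM among the mutants, where it was therefore still counted. Wild-type 1 was the highest wild-type library in 38 of 40 members, against 6743 of 16107 tested genes. Muc2-/- 2 was the lowest mutant in 27 members, against 44.3% of all tested genes. In wild-type 1 the median member lay 0.92 above the mean of the other wild-type libraries on the log2 scale, against 0.05 over all 16107 tested genes. In Muc2-/- 2 it lay -0.50 from the mean of the other mutants, against -0.03 over all tested genes. Wild-type 3 and Muc2-/- 1 lay at the opposite ends of their groups for the interstitial genes. Mean log2 CPM of that class was 6.43, 5.78 and 5.21 in wild-type 1, 2 and 3. In Muc2-/- 1, 2 and 3 it was 5.36, 4.62 and 4.84. Results are given with and without wild-type 1 and Muc2-/- 2. No fit left out wild-type 3 and Muc2-/- 1 together.

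Matrix genes stood mostly at lower levels in the Muc2-/- colon, but none passed the test. Of the 40 members 36 had a log2 fold change below 0, where 50.9% of all tested genes did, and the median was -0.79 against -0.01 over all tested genes. The edgeR quasi-likelihood test called 0 members (Benjamini-Hochberg adjusted p below 0.05, over all tested genes), and the smallest adjusted p was 0.101, for Fbln2. The same test called 0.124% of all tested genes. Unadjusted, 12 members were lower and 1 was higher at p below 0.05, where the shares of all tested genes were 12.7% and 8.23%. DESeq2 at an adjusted p under 0.05 called 10 members lower and 1 higher, with background shares of 7.41% and 4.09%. With edgeR, 8 members were called lower when no filter on low counts was applied (3.04% of the genes then tested) and 8 without wild-type 3 (5.68%). The 2 groups did not overlap in 11 members that were lower (15.2% of all tested genes) and in 2 that were higher (13.4%). In RNA of a whole tissue, fewer cells of a type and less RNA per cell cannot be told apart.

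**Figure D1:**
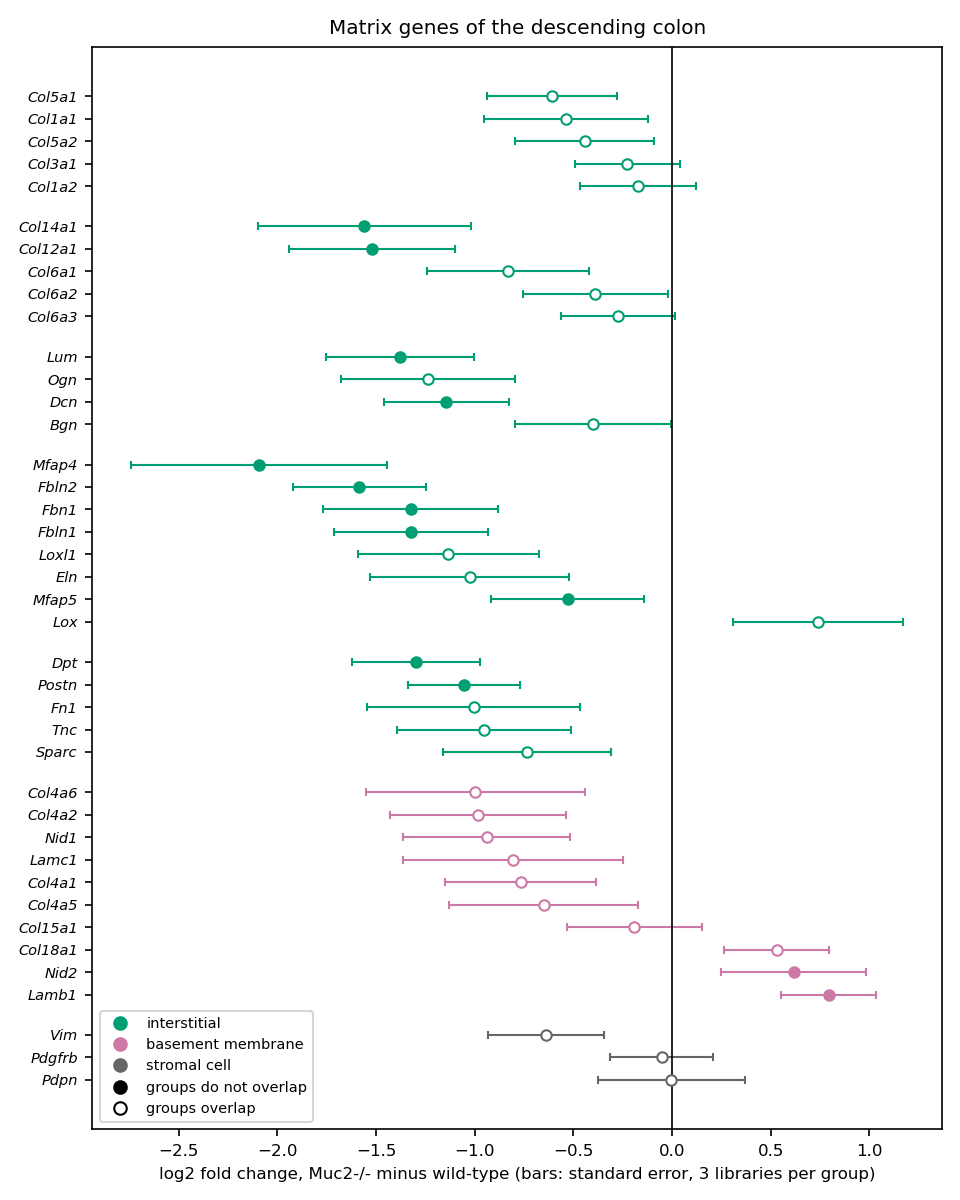
Log2 fold change of each of the 40 members, Muc2-/- minus wild-type (edgeR), with its standard error, ordered within role groups and coloured by class. Filled points mark the 13 genes whose groups do not overlap, and the lowest value is that of Mfap4 (-2.09) and the highest that of Lamb1 (0.79).

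The promoters of some members described below are shown here, and no link between their sequence and the levels of the genes was tested. RefSeq (GRCm38.p6) held promoters for 25 of the 40 members, each from 250 bases before to 50 after the start of transcription. Col4a1 and Col4a2, which encode the chains of the common collagen IV trimer, lie head to head on chromosome 8, with RefSeq starts 21 bases apart. Lamb1 and Fbln2 are the genes with the smallest unadjusted p among the higher and the lower members. Capitals mark the motif CCAAT, the GC box GGGCGG, and the TATA box TATAAA, searched on either strand. The windows are chr8:11312777-11313076 (minus strand) for Col4a1, chr8:11312555-11312854 (plus strand) for Col4a2, chr12:31265043-31265342 (plus strand) for Lamb1 and chr6:91212514-91212813 (plus strand) for Fbln2.
Col4a1: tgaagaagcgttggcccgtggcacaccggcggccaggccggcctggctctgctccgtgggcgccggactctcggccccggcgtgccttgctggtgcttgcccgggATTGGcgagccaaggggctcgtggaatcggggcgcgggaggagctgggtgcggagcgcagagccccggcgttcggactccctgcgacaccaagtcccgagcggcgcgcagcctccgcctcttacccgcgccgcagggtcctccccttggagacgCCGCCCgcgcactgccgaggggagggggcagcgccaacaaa
Col4a2: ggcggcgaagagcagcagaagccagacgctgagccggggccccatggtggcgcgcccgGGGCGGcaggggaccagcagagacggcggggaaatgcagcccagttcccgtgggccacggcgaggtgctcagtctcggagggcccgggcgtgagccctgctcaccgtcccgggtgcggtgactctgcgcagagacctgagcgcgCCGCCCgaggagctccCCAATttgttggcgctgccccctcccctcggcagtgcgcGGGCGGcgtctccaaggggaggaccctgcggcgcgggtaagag
Lamb1: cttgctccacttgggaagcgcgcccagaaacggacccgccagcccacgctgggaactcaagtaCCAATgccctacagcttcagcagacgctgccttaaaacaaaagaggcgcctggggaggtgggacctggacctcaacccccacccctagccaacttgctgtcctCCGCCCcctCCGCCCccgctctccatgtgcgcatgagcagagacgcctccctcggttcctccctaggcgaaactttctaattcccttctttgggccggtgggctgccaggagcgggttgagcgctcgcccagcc
Fbln2: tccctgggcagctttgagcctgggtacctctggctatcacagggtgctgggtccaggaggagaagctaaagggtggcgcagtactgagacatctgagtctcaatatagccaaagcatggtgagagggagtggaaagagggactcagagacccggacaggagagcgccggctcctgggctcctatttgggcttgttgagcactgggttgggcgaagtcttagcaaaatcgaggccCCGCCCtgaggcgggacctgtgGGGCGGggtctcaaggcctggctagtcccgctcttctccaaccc
The windows of Col4a1 and Col4a2 share 78 bases, and 74.0% and 73.7% of their bases are G or C. The GC box was found in the promoters of 16 of 25 members and in 35.7% of the 32851 promoters of the same length in the table. The motif CCAAT was found in 9 of 25 members and in 37.4% of all promoters, and the TATA box in 6 of 25 (Col3a1, Dpt, Ogn, Postn, Tnc and Vim) and in 13.6%. Members were counted as genes, whereas the shares of all are of single promoters, so the counts and the shares differ in unit. These matches are descriptions of the letters, and no promoter activity was measured.

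The 5 fibrillar collagens all had log2 fold changes below 0, from -0.61 to -0.17. Col3a1, on chromosome 1 (45350698 to 45388866), which encodes the chain of collagen III, had the highest level of them per length, 31.9 ± 8.56 FPKM in wild-type and 27.7 ± 4.52 FPKM in Muc2-/- (SD, n = 3 each, as for all values below). Wild-type 1, 2 and 3 had 420.9, 281 and 249 CPM, and Muc2-/- 1, 2 and 3 had 309, 218 and 286 CPM, the order used for all library values below. The groups overlapped, with wild-type 1 above all other libraries (log2 fold change -0.23, SE 0.27, edgeR adjusted p = 0.663). Col1a1, on chromosome 11 (94827050 to 94843868), encodes the alpha 1 chain of collagen I. It had 187, 107 and 80.3 CPM in wild-type and 112, 44.4 and 101 CPM in Muc2-/-, with Muc2-/- 2 lowest (-0.54, SE 0.42). Its partner chain Col1a2 had a log2 fold change of -0.17 (SE 0.30). The minor fibril chains Col5a1 and Col5a2, which take part in setting fibril diameter, had -0.61 (SE 0.33) and -0.44 (SE 0.35). In all 5 the groups overlapped, and adjusted p lay between 0.332 and 0.781. Without wild-type 1 and Muc2-/- 2 the group's median was 0.16 in place of -0.44, and 4 of the 5 were above 0.

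Collagen VI forms beaded filaments around cells, whereas collagens XII and XIV sit on the surface of collagen I fibrils. The collagen VI chains had log2 fold changes of -0.83 (Col6a1, SE 0.41), -0.39 (Col6a2, SE 0.37) and -0.28 (Col6a3, SE 0.29), with overlapping groups. Col6a1, on chromosome 10 (76544626 to 76562002), the chain with the highest level per length (24.9 ± 11.3 and 14.2 ± 5.63 FPKM), had 170.3, 91.0 and 70.7 CPM in wild-type and 84.9, 34.99 and 66.6 CPM in Muc2-/-. Col6a2 had 114, 70.5 and 52.9 CPM in wild-type and 74.6, 35.3 and 71.7 CPM in Muc2-/-. The fibril-associated collagens were further apart. Col12a1 (chromosome 9, 79506273 to 79626113) had 79.4, 52.2 and 28.3 CPM in wild-type and 27.3, 13.3 and 15.2 CPM in Muc2-/-, a mean 2.87-fold lower (log2 fold change -1.52, SE 0.42, edgeR adjusted p = 0.114). Every mutant library lay below every wild-type library, the nearest being wild-type 3 and Muc2-/- 1. Col14a1 (chromosome 15, 55171146 to 55384199) had 16.4, 13.8 and 8.05 CPM in wild-type and 4.88, 6.60 and 1.48 CPM in Muc2-/-, also without overlap (-1.56, SE 0.54, adjusted p = 0.162). DESeq2 called both lower (adjusted p = 0.0106 and 0.0480).

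Small leucine-rich proteoglycans bind collagen fibrils and regulate their assembly. Decorin (Dcn, chromosome 10, 97315471 to 97354005) had 239.7, 174 and 111 CPM in wild-type and 96.0, 83.0 and 58.5 CPM in Muc2-/-. The groups did not overlap, and the mean was 2.21-fold lower in the mutants (-1.14, SE 0.32, edgeR adjusted p = 0.115). Lumican (Lum), which lies 46984 bases downstream of Dcn on the same strand, had 67.9, 50.6 and 33.3 CPM in wild-type and 26.2, 21.2 and 10.9 CPM in Muc2-/- (-1.38, SE 0.37, adjusted p = 0.111), also without overlap. The FPKM of Dcn was 1.395 to 1.48 times that of Lum in wild-type and 1.53 to 2.25 times in Muc2-/-. Osteoglycin (Ogn) had the highest level per length of the 4 genes, 34.9 ± 12.5 FPKM in wild-type and 15.1 ± 8.89 FPKM in Muc2-/-. Its counts were 129, 81.2 and 62.3 CPM in wild-type and 65.1, 28.0 and 22.5 CPM in Muc2-/- (-1.24, SE 0.44, adjusted p = 0.171), and Muc2-/- 1 lay above wild-type 3. Biglycan (Bgn), a close relative of decorin encoded on chromosome X, was nearer between the groups (90.7 ± 36.1 and 68.7 ± 29.3 CPM, -0.40, SE 0.40, adjusted p = 0.598). DESeq2 called Dcn and Lum lower (adjusted p = 0.0154 and 0.0124). Leaving out wild-type 1 and Muc2-/- 2 gave -0.89 for Dcn and -1.18 for Lum, and 0.24 for Bgn.

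Elastic fibre and fibulin genes included the lowest values of the whole list. Mfap4, a microfibril-associated protein that binds elastin and collagen (chromosome 11, 61376257 to 61379726), had 55.2, 35.5 and 15.5 CPM in wild-type and 14.8, 2.64 and 7.41 CPM in Muc2-/-. The nearest libraries, wild-type 3 and Muc2-/- 1, were almost level, while the means differed 4.27-fold (-2.09, SE 0.65, edgeR adjusted p = 0.135). Fibulin 2 (Fbln2, chromosome 6, 91189437 to 91249522), a linker between elastic fibres and basement membranes whose promoter is printed above, had 21.4, 17.4 and 13.9 CPM in wild-type and 7.31, 3.63 and 6.60 CPM in Muc2-/-. Here the lowest wild-type library was well above the highest mutant library, and the mean was 3.00-fold lower (-1.59, SE 0.34). It had the smallest p of the members (unadjusted 0.00158, edgeR adjusted 0.101, DESeq2 adjusted 5.48e-04).

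Fibulin 1 (Fbln1, chromosome 15, 85090150 to 85170736) had 125, 75.4 and 40.6 CPM in wild-type and 39.5, 25.5 and 31.4 CPM in Muc2-/- (-1.32, SE 0.39, edgeR adjusted p = 0.124). Fibrillin 1 (Fbn1, chromosome 2, 125142514 to 125349913), the main microfibril protein, had 41.2, 20.1 and 12.0 CPM in wild-type and 11.7, 7.53 and 9.998 CPM in Muc2-/- (-1.32, SE 0.44, adjusted p = 0.153). In both, wild-type 3 was only slightly above Muc2-/- 1. Mfap5, a low-level microfibril gene, had 4.20, 4.37 and 3.91 CPM in wild-type and 2.97, 3.76 and 1.91 CPM in Muc2-/- (-0.53, SE 0.39). Elastin itself (Eln) overlapped between the groups, at 24.1 ± 15.7 and 11.8 ± 4.59 CPM (-1.03, SE 0.50, adjusted p = 0.287). The crosslinking enzymes pointed in opposite directions. Loxl1, which acts on elastin, had 20.6 ± 11.0 and 9.39 ± 4.12 CPM (-1.13, SE 0.46, adjusted p = 0.214). Lox, which crosslinks collagen and elastin, had 3.15, 1.82 and 2.05 CPM in wild-type and 3.33, 3.04 and 5.37 CPM in Muc2-/- (0.74, SE 0.43, adjusted p = 0.367). It was the 1 interstitial gene with a value above 0, and its groups overlapped through wild-type 1.

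**Figure D2:**
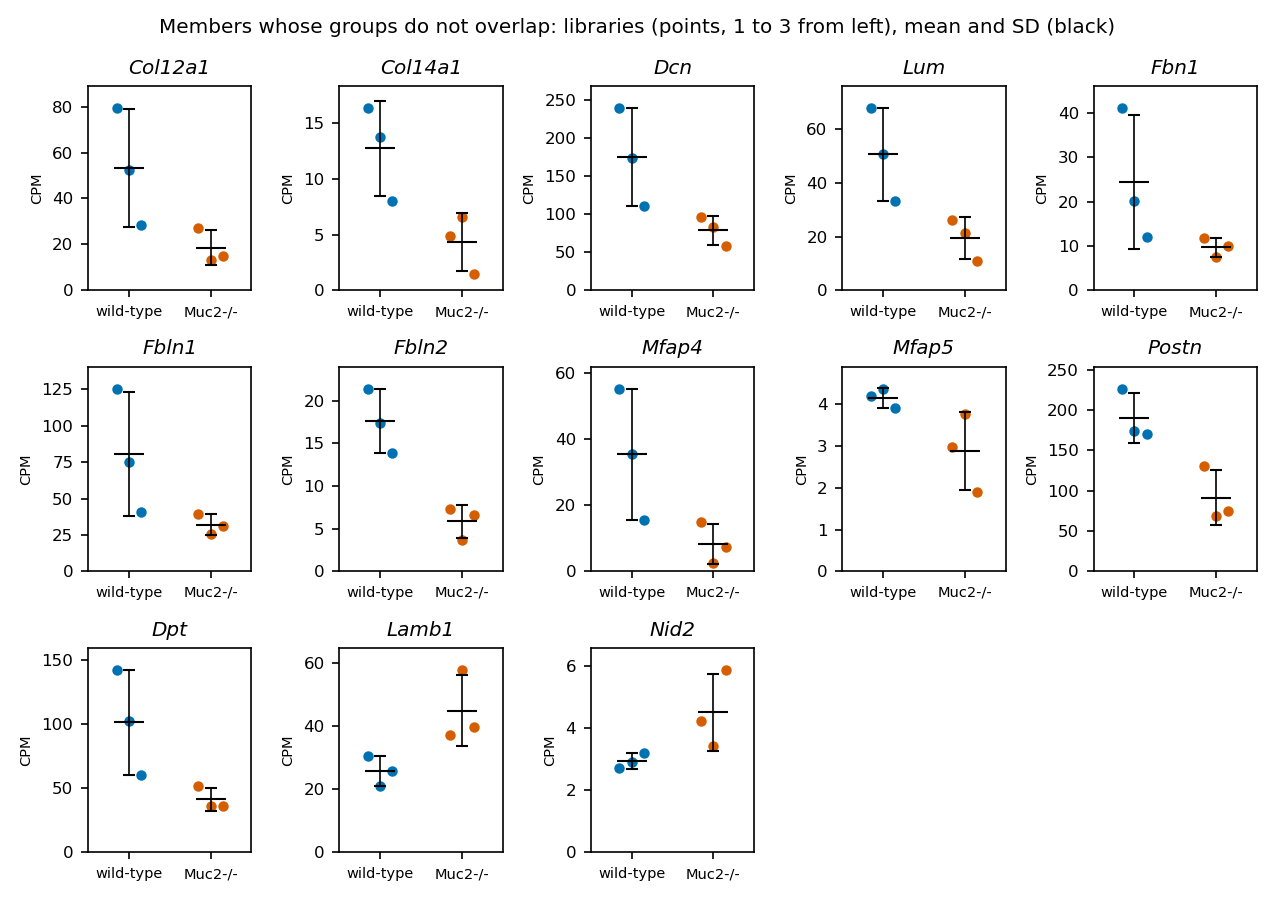
CPM of the 13 members whose groups do not overlap, 1 point per library (replicates 1 to 3 from left to right, blue wild-type, orange Muc2-/-), with the mean and SD in black. For Col12a1, Mfap4, Fbn1 and Fbln1 wild-type 3 lies close to Muc2-/- 1, whereas for Fbln2 the lowest wild-type value is 13.9 and the highest Muc2-/- value 7.31.

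Adhesive and matricellular proteins link cells to fibrils. Sparc, which binds collagen and calcium, had the highest level per length of all members, 69.4 ± 30.2 FPKM in wild-type and 42.4 ± 18.3 FPKM in Muc2-/-. It had 402, 231 and 167 CPM in wild-type and 227, 86.4 and 167 CPM in Muc2-/-, with overlap (-0.74, SE 0.43, edgeR adjusted p = 0.364). Dermatopontin (Dpt, chromosome 1, 164624213 to 164651835), a decorin-binding protein, came next at 58.2 ± 22.4 and 24.2 ± 4.95 FPKM. Its CPM were 143, 102 and 60.4 in wild-type and 51.8, 36.1 and 36.5 in Muc2-/-, with no overlap (-1.30, SE 0.32, adjusted p = 0.103). Periostin (Postn, chromosome 3, 54268530 to 54298458), a protein of fibroblasts that promotes collagen crosslinking, had 226, 174 and 169.7 CPM in wild-type and 131, 69.0 and 74.9 CPM in Muc2-/- (-1.05, SE 0.29, adjusted p = 0.110), again with no overlap. DESeq2 called Dpt and Postn lower (adjusted p = 0.00611 and 0.0124). Fibronectin (Fn1) had 445 ± 281 and 222 ± 133 CPM, with 765 CPM in wild-type 1 alone (-1.01, SE 0.54, adjusted p = 0.329). Without wild-type 1 and Muc2-/- 2 its log2 fold change was -0.06. Tenascin C (Tnc), known for its induction in wound repair, had 149 ± 85.1 and 76.9 ± 12.9 CPM (-0.95, SE 0.44, adjusted p = 0.264).

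Basement membrane genes split in direction. The collagen IV chains were lower in the mean. Col4a1 (11248423 to 11362826 on chromosome 8 in the count table) had 257, 151 and 95.0 CPM in wild-type and 122, 66.9 and 107 CPM in Muc2-/- (-0.77, SE 0.38, edgeR adjusted p = 0.295). Col4a2, its head-to-head neighbour (11362805 to 11499287), had 232, 134 and 69.1 CPM in wild-type and 98.8, 47.5 and 73.9 CPM in Muc2-/- (-0.98, SE 0.45, adjusted p = 0.257). In both the groups overlapped, and wild-type 1 was highest and Muc2-/- 2 lowest. The FPKM of Col4a1 was 0.984 to 1.22 times that of Col4a2 in wild-type and 1.09 to 1.29 times in Muc2-/-. The pair on chromosome X, Col4a5 and Col4a6, whose RefSeq starts lie 1343 bases apart, had lower levels (1.94 and 0.616 FPKM over all libraries) and log2 fold changes of -0.65 (SE 0.48) and -0.997 (SE 0.56). Col15a1, a collagen of vessel and muscle basement membranes, had -0.19 (SE 0.34). Col18a1, the precursor of endostatin, had 38.7, 29.7 and 22.0 CPM in wild-type and 37.6, 37.6 and 55.3 CPM in Muc2-/- (0.53, SE 0.27, adjusted p = 0.297), with overlap through wild-type 1.

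Laminin and nidogen genes each had members on either side. Lamb1 (chromosome 12, 31315233 to 31379643), which encodes the laminin beta 1 chain, had 30.6, 21.2 and 25.8 CPM in wild-type and 37.0, 57.8 and 39.7 CPM in Muc2-/-. All mutant libraries were above all wild-type libraries, and the mean was 1.74-fold higher (0.79, SE 0.24, edgeR adjusted p = 0.129, DESeq2 adjusted p = 0.0446). It was the 1 member that DESeq2 called higher. Lamc1, encoding the gamma 1 chain that pairs with beta 1 in the same trimers, had 84.3, 50.3 and 34.8 CPM in wild-type and 45.1, 9.57 and 42.2 CPM in Muc2-/- (-0.81, SE 0.56, adjusted p = 0.444). Muc2-/- 2 was far below the other mutants, and without this library and wild-type 1 the log2 fold change was 0.03, against 0.71 for Lamb1. The nidogens join laminin to collagen IV. Nid1 had 97.9, 63.3 and 34.1 CPM in wild-type and 38.2, 19.7 and 43.9 CPM in Muc2-/- (-0.94, SE 0.42, adjusted p = 0.255). Nid2 had 2.71, 2.91 and 3.19 CPM in wild-type and 4.22, 3.43 and 5.86 CPM in Muc2-/-, higher in each mutant library (0.62, SE 0.37, adjusted p = 0.378).

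The stromal cell genes showed smaller differences. Vim, the intermediate filament of mesenchymal cells, had 189.5, 141 and 94.3 CPM in wild-type and 104, 100.1 and 68.1 CPM in Muc2-/- (-0.64, SE 0.29, edgeR adjusted p = 0.262). Pdgfrb, a growth factor receptor of pericytes and fibroblasts, had 20.9, 13.6 and 13.7 CPM in wild-type and 13.3, 17.8 and 15.4 CPM in Muc2-/- (-0.05, SE 0.26, adjusted p = 0.929). Pdpn, which marks reticular fibroblasts and lymphatic vessels, had 10.1, 6.14 and 4.62 CPM in wild-type and 5.59, 8.32 and 6.91 CPM in Muc2-/-, with means of 6.96 ± 2.84 and 6.94 ± 1.36 CPM. The groups overlapped in each of the 3 genes.

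Interstitial and basement membrane genes were then set side by side. The median log2 fold change was -1.01 over the 27 interstitial genes and -0.71 over the 10 basement membrane genes, beside -0.01 over all tested genes. Interstitial minus basement membrane gave -0.30. The groups did not overlap in 11 of 27 interstitial genes, all lower (15.2% of all tested genes were), and in 2 of 10 basement membrane genes, both higher (13.4%). DESeq2 called 10 interstitial genes, all lower (background 7.41%), and 1 basement membrane gene, higher (4.09%). The basement membrane counts are too small to set apart from these shares, and the difference between the classes was not tested. Interstitial genes summed to 687, 435 and 308 FPKM in the wild-type libraries and to 348, 195 and 244 FPKM in the mutants. Basement membrane genes summed to 108, 65.4 and 43.3 FPKM in the wild-type libraries and to 56.5, 34.998 and 54.1 FPKM in the mutants. Both sums overlapped between the groups. Within the interstitial class the medians by role ran from -0.44 for fibrillar collagens through -0.83 for collagen VI and fibril-associated collagens, -1.01 for adhesive genes and -1.19 for proteoglycans to -1.23 for elastic fibre genes.

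**Figure D3:**
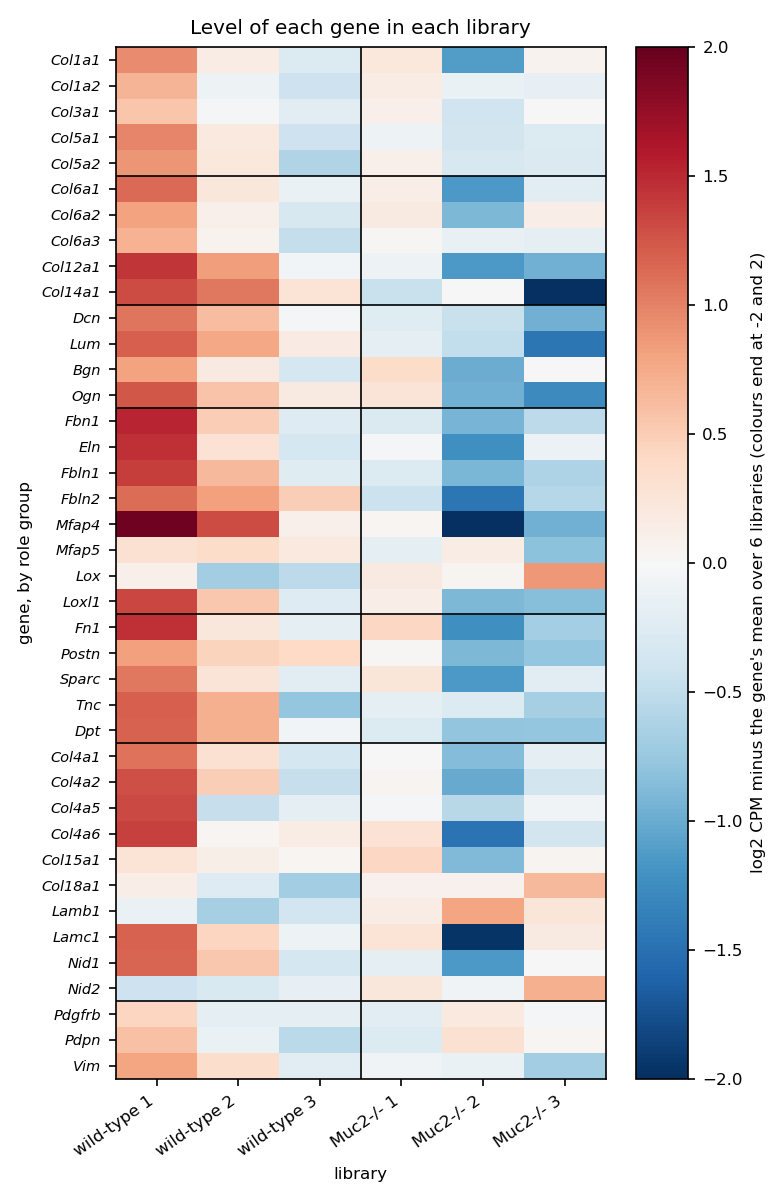
Log2 CPM of each member in each library, minus the mean of that gene over the 6 libraries, by role group. Wild-type 1 is red in nearly every row and Muc2-/- 2 blue in most, while for Lamb1 wild-type 1 is blue and Muc2-/- 2 red. Lox, Col18a1, Lamb1 and Nid2 have the higher mean in the mutants.

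Much of the spread lay between libraries of 1 group. In 33 of 40 members the wild-type levels ran in the order wild-type 1, 2, 3 from high to low, as they did in 30.7% of all tested genes. This held for 25 of 27 interstitial genes and 6 of 10 basement membrane genes. Muc2-/- 2 was the lowest of the mutants in 27 members (44.3% of all tested genes). The summed CPM of 13 smooth muscle markers, among them Myh11, Acta2 and Des, ran in the same order in wild-type. Wild-type 1, 2 and 3 held 25846, 15207 and 7302, while Muc2-/- 1, 2 and 3 held 5592, 5820.3 and 3079. By an exact two-sided permutation test p was 0.1, the lowest that 3 libraries against 3 can reach, and 0.18 after adjustment over 9 marker lists. None of the 13 was at 0 in any library, 13 of 13 had log2 fold changes below 0 and the median was -1.70. The 9 epithelial markers ran in the opposite direction, with sums of 10969, 17482 and 19999 CPM in the wild-type libraries and 24502, 41018 and 26689 CPM in the mutants. Pericyte, enteric glia and neuron, and mesothelial markers had medians of -1.62, -2.11 and -2.34 (permutation p = 0.1 for each sum, 0.18 adjusted). Endothelial (-0.40) and adipocyte markers (-0.35) had medians nearer 0, and macrophage markers had a median of 0.82 with 8 of 8 above 0. EdgeR called 0 genes in each of the 9 lists. The 12 fibroblast markers outside the members were mixed, with 7 log2 fold changes below 0 and 5 above, from -1.07 to 1.16 (median -0.07). Their sums did not run in the order of the smooth muscle sums, with 922, 1019 and 1005 CPM in wild-type and 962, 1021 and 831 CPM in Muc2-/-. A sum weighs the most abundant genes most, in each of the lists, so cell content cannot be read from it. The mean log2 CPM weighs each gene alike. For the fibroblast markers it was 4.13, 3.77 and 3.95 in wild-type and 3.80, 4.03 and 3.56 in Muc2-/-. For the smooth muscle markers it was 9.73, 9.05 and 7.90 in wild-type and 7.57, 7.40 and 6.74 in Muc2-/-. Longer genes stood lower in Muc2-/- 2, with a Spearman rho across genes of -0.25 between length and deviation from the average of the libraries, against -0.01 to 0.15 elsewhere (genes are not independent replicates). Mitochondrial genes took 8.98% of counts in wild-type 1 and 1.04% in Muc2-/- 2, with 3.30% to 5.30% in the other libraries. The part of muscle content, epithelial content and RNA length in the matrix values was not tested.

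Values were also computed without wild-type 1 and Muc2-/- 2. These libraries were picked on the members' own levels, mostly as the highest wild-type and the lowest mutant library. Leaving them out therefore tends to raise the members' log2 fold changes by construction. Most values below 0 moved towards 0 or across it. Lox (0.74 to 1.16), Col18a1 (0.53 to 0.84), Col14a1 (-1.56 to -1.78) and Mfap5 (-0.53 to -0.76) moved away from 0. The medians by role that follow are a description with no test. The median was -0.47 for the interstitial genes and 0.10 for the basement membrane genes, with -0.02 over all tested genes, and edgeR called 0 members (0 genes lower and 1 higher among 16232 tested, 0.00616% higher). Proteoglycans (median -0.80), elastic fibre genes (-0.64) and adhesive genes (-0.56) had medians below 0, and fibrillar collagens had 0.16. Of 18 alternative analyses, Lox, Nid2 and Col4a6 entered 16, since they did not pass the FPKM minimum, and the other members entered all. In those that gave a value 24 members were lower each time, 4 (Lox, Col18a1, Lamb1 and Nid2) were higher each time, and 12 changed sign at least once. The same was not counted over all tested genes. The analyses reuse the same libraries, so signs largely repeat by construction and a kept sign is no independent support. The 12 comprised Col1a1, Col1a2, Col3a1, Col5a2, Col6a2, Col6a3, Bgn, Col4a5, Col15a1, Lamc1, Pdgfrb and Pdpn.

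**Figure D4:**
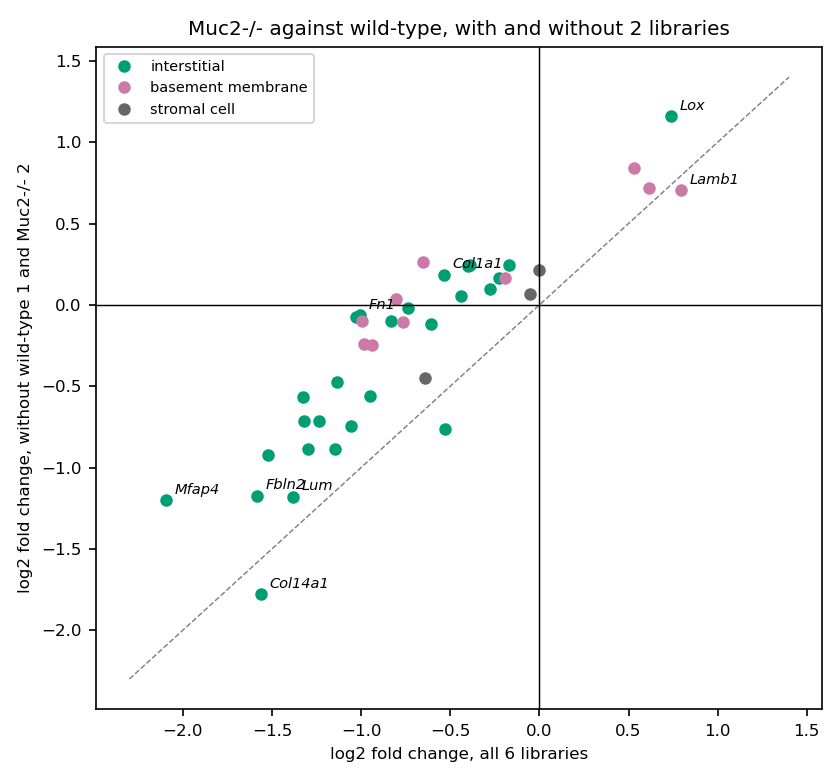
Log2 fold change of each member in the fit of all 6 libraries (x axis) and in the fit without wild-type 1 and Muc2-/- 2 (y axis), coloured by class, with the line of equality dashed. Mfap4 (-2.09 and -1.20), Fbln2 (-1.59 and -1.17) and Lum (-1.38 and -1.18) stay low, whereas Col1a1 (-0.54 and 0.19) and Fn1 (-1.01 and -0.06) move to or across 0.

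Chains that join in 1 protein can be compared within a library, where scaling between libraries cancels. These pairs were chosen after their values were seen. The FPKM ratio of Col1a1 to Col1a2 was 1.36, 1.34 and 1.24 in wild-type and 1.18, 0.568 and 1.32 in Muc2-/-, so Muc2-/- 2 stood apart from the other 5 libraries. The ratio of Col6a1 to Col6a2 was 2.83, 2.45 and 2.54 in wild-type and 2.16, 1.89 and 1.77 in Muc2-/-, with no overlap. The ratio of Lamb1 to Lamc1 was 0.303, 0.351 and 0.618 in wild-type and 0.686, 5.04 and 0.785 in Muc2-/-. It was higher in each mutant than in each wild-type library, with Muc2-/- 2 far above the rest. The nidogens are separate proteins and not chains of 1 protein, but their FPKM were compared in the same way. Nid1 exceeded Nid2 by 26.9, 16.2 and 7.96 times in wild-type and by 6.75, 4.27 and 5.58 times in Muc2-/-, also without overlap.

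**Figure D5:**
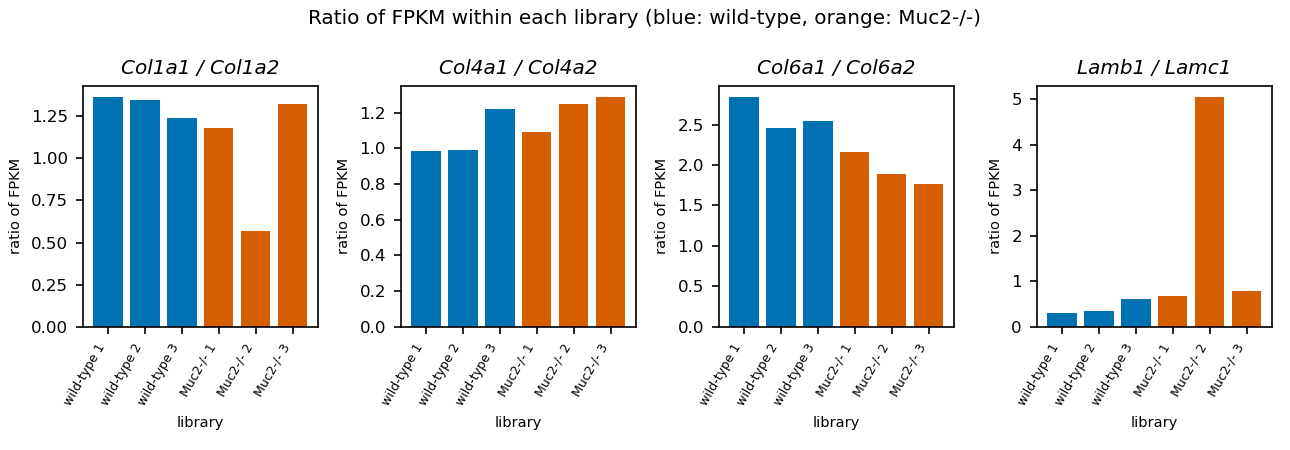
Ratio of the FPKM of paired chains in each library (blue wild-type, orange Muc2-/-). Muc2-/- 2 is lowest for Col1a1 over Col1a2 (0.568) and highest for Lamb1 over Lamc1 (5.04), and for Col6a1 over Col6a2 the wild-type libraries (2.45 to 2.83) lie above the mutants (1.77 to 2.16).

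Other genes of matrix assembly were taken from lists by function. Of the other basement membrane genes 16 of 19 were tested, and the median log2 fold change was -0.53. The genes named here were chosen after their values were seen. Lamb3, a laminin chain of epithelial basement membranes, had 198 ± 35.8 and 373 ± 24.7 CPM (0.91, SE 0.21, edgeR adjusted p = 0.103). Lamb2, the laminin beta 2 chain of muscle and vessels, had 70.05 ± 35.1 and 21.8 ± 6.20 CPM (-1.68, SE 0.39, adjusted p = 0.103), and perlecan (Hspg2) had 117 ± 57.8 and 51.7 ± 14.1 CPM (-1.18, SE 0.38, adjusted p = 0.142). The DESeq2 calls in this list included Lamb2, Lamc3 and Hspg2, which were lower, and Lamb3, which was higher.

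In the list of other interstitial collagens 10 of 14 genes were tested, 0 were called by edgeR, and the median was -0.67. Col16a1, a fibril-associated collagen, had 71.3 ± 38.5 and 28.6 ± 4.64 CPM (-1.32, SE 0.37, edgeR adjusted p = 0.118), and Col27a1 had 27.0 ± 16.8 and 10.6 ± 1.93 CPM (-1.34, SE 0.49). DESeq2 called Col8a1, Col8a2 and Col16a1 lower (7.41% of all tested genes were) and Col6a4 higher (4.09%). Enzymes and chaperones of collagen synthesis had a median of -0.86 over 24 genes, with 0 called by edgeR. At an unadjusted edgeR p under 0.05, 10 were lower, where 12.7% of all tested genes were. Serpinh1, the collagen chaperone, had 128 ± 61.0 and 65.6 ± 15.8 CPM (-0.96, SE 0.36, adjusted p = 0.187), whereas P4hb, which also serves as a general disulfide isomerase, had 577 ± 71.9 and 800.3 ± 86.2 CPM (0.47, SE 0.23, adjusted p = 0.280). Of 28 tested genes of other proteoglycans and elastic fibres (median -0.95) edgeR called 0. At an unadjusted edgeR p under 0.05, 16 were lower (12.7% of all tested genes), and DESeq2 called 9 lower (7.41%). Ltbp4, which tethers latent TGF-beta to elastic fibres, had 96.4 ± 31.0 and 44.1 ± 20.6 CPM (-1.13, SE 0.37, adjusted p = 0.147), and Thbs4 had 350.3 ± 239.6 and 352 ± 134 CPM (0.01, SE 0.49).

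Matrix receptors (25 genes, median -0.41) went both ways, with 0 called by edgeR. Before adjustment 3 were higher and 7 lower (edgeR p below 0.05), where 8.23% and 12.7% of all tested genes were. DESeq2 called 3 higher and 5 lower, with background shares of 4.09% and 7.41%. The shared integrin chain Itgb1 had 469 ± 156 and 334 ± 51.0 CPM (-0.49, SE 0.29, edgeR adjusted p = 0.372), and syndecan 1 (Sdc1), an epithelial and plasma cell proteoglycan, had 258 ± 49.3 and 367 ± 51.3 CPM (0.50, SE 0.23, adjusted p = 0.259).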

How the data were processed

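Libraries of poly-T purified RNA were sequenced as paired-end Illumina reads, per the labels' protocols. The authors deposited 2 tables for all 6 libraries: unnormalized whole-number counts, and FPKM, which are scaled by gene length and library. The submitters' processing notes list mm10, DESeq2 1.20.0, featureCounts 1.5.0-p3, StringTie 1.3.3b and HISAT2 2.0.5, with no role for each. No strand setting appears in the sources used here, and reads of overlapping genes cannot be told apart. All 40 members had the same width in GENCODE M21 (GRCm38) but 2 had the same start and end, so gene coordinates are those of the count table, with no build given, and promoter coordinates are RefSeq's, on GRCm38.p6.

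For testing, edgeR 4.0.16 (R 4.3.3) was used with TMM scaling, its default expression filter (count 10, total 15), genotype as the only term and Benjamini-Hochberg adjustment at 0.05. CPM divide counts by the library total times its TMM factor, and each SE is the log2 fold change over the square root of F. DESeq2 1.42.0 and limma 3.58.1 served as alternatives, as did other scalings and filters, FPKM, a replicate block and leaving libraries out. Library totals were 16395432 counts or more, but counting error depends on the count of each gene. In Muc2-/- 2 this was 23 for Col4a6 and 40 for Mfap4. Members, lists and tests were chosen with earlier results of these data known. All library values were printed for members whose groups did not overlap and for the 2 members of each role group highest in FPKM, and for some others chosen after their values were seen. From each further list the genes called by edgeR, or else the 2 highest in CPM, were named, except in the list of other basement membrane genes, from which a result is not reported here and genes were chosen after their values were seen. Replicates differed by more than sampling noise (chi-square per degree of freedom of 27.3 or more). The test was checked on simulated data.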

Additional observations from a re-analysis of the deposited data

How the results depend on the processing

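Directions of single members were mostly kept across analyses that share libraries, while calls depended on the method and on single libraries. In place of 0 members lower, 8 were called with no filter on low counts (3.04% of all tested genes), 10 in DESeq2, 9 with the replicate number as a block (2.78%) and 0 to 8 with 1 library left out, the 8 arising without wild-type 3 (Col12a1, Dcn, Lum, Fbn1, Fbln1, Fbln2, Tnc and Dpt, 5.68%). Higher members were 1 in DESeq2 and 0 in every other analysis. Over all genes edgeR called 17 higher and 3 lower. There were 7 and 1 with no composition factor, 384 and 815 with no filter, 659 and 1193 in DESeq2, 5 lower with RLE scaling and 11 higher with limma-voom. On log2(FPKM + 1) there were 37 and 9 with a minimum of 1 FPKM and 3 and 0 without one, and on log2(FPKM + 0.1) 31 and 8. The replicate block gave 225 and 448. Same-numbered libraries correlated in their deviations at 0.089, 0.283 and 0.060 across genes, and differently numbered ones at -0.248 to 0.080. Deviations within a group sum to 0, so these values depend on each other and do not settle a pairing. The sample titles give a replicate number and no pairing, so the numbers are not taken to pair animals. With 1 library left out the counts ran from 0 to 272 higher and 0 to 954 lower, and without wild-type 1 and Muc2-/- 2 there were 1 and 0.

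The interstitial median (-1.01) lay between -1.29 and -0.51 with 1 library left out and was -0.47 without wild-type 1 and Muc2-/- 2. The basement membrane median (-0.71) lay between -0.96 and -0.22, the last without wild-type 1, and was 0.10 without both libraries. Their difference (-0.30) lay between -0.38 and -0.11 with 1 library left out and was -0.57 without both. With no composition factor the median of all genes moved from -0.01 to -0.20. Signs changed without wild-type 1 and Muc2-/- 2 for Col1a1 (0.19), Col1a2 (0.25), Col3a1 (0.16), Col5a2 (0.055), Col6a2 (0.24), Col6a3 (0.10), Bgn (0.24), Col4a5 (0.26), Col15a1 (0.16), Lamc1 (0.0349), Pdgfrb (0.0685) and Pdpn (0.21). With 1 library left out Col1a2 ran from -0.37 to 0.20, Col3a1 from -0.37 to 0.0275, Col6a3 from -0.51 to 0.0729, Col4a5 from -0.96 to 0.11, Col15a1 from -0.48 to 0.12, Pdgfrb from -0.16 to 0.18 and Pdpn from -0.22 to 0.37. Pdpn, at -0.00397, was also above 0 with RLE scaling (0.0242), no filter (0.0084), DESeq2 (0.0243), limma-voom (0.0671), FPKM (0.0516 with and without the minimum, 0.0722 with + 0.1) and the replicate block (0.0579). The cause of these changes was not tested.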

Other observations

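TGF-beta is the main growth factor that drives fibroblasts to make collagen. Of the 18 genes in the list of its ligands, receptors and response genes edgeR called 0, and the median was 0.02. At an unadjusted edgeR p under 0.05, 2 were higher and 3 lower. These counts are too small to set apart from the shares of all tested genes, 8.23% and 12.7%. Smad4, the shared signal transducer, had 94.3 ± 16.9 and 129 ± 18.1 CPM (0.45, SE 0.20, edgeR adjusted p = 0.257), and Tgfbi, a matrix protein induced by TGF-beta, had 92.9 ± 46.3 and 95.1 ± 21.6 CPM (0.03, SE 0.37). Genes named from here on were chosen after their values were seen. The ligands differed: Tgfb2 had 22.1, 14.3 and 6.95 CPM in wild-type and 4.70, 3.10 and 4.26 CPM in Muc2-/- (-1.84, SE 0.44, adjusted p = 0.103), Tgfb3 had a log2 fold change of -1.71 (SE 0.53), and Tgfb1 had 15.6 ± 6.01 and 16.6 ± 2.56 CPM (0.08, SE 0.31). Skil, a feedback inhibitor of the pathway, had 43.2, 59.2 and 63.9 CPM in wild-type and 103, 160.1 and 129.7 CPM in Muc2-/-, without overlap (1.24, SE 0.24, adjusted p = 0.0962). DESeq2 called Tgfb2, Tgfb3 and Tgfbr3 lower (7.41% of all tested genes were) and Skil higher (4.09%).

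Matrix receptors had values in both directions. Itga8 had 21.7, 11.4 and 7.62 CPM in wild-type and 3.51, 2.90 and 1.60 CPM in Muc2-/- (-2.34, SE 0.49, edgeR adjusted p = 0.101), and the collagen receptors Itga1 (-1.72, SE 0.44) and Ddr2 (-1.42, SE 0.40) were also without overlap. Itgb6, an epithelial integrin chain that activates latent TGF-beta, had 25.7, 35.6 and 21.5 CPM in wild-type and 57.9, 109.8 and 93.9 CPM in Muc2-/- (1.66, SE 0.30, adjusted p = 0.0927), and the laminin receptor chain Itga6 had 175 ± 25.5 and 319 ± 61.4 CPM (0.87, SE 0.23). The smooth muscle and epithelial marker sums given above moved in the same directions as these genes, and their part in the values was not tested.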
